A study of Mus musculus with 16 samples.

Results

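Chromosome 9 beyond 15 Mb was measured with 10963 array probes, out of 235402 probes on the array and 220668 on the autosomes (4.97% of the autosomal set). The members are all non-control probes whose position on the mouse build mm8 lies on chromosome 9 past 15000000. They run from 15000153 to 123957580, which is 109 Mb, at a median spacing of 7411 bp, against 7827 bp over the autosomes. The widest interval without a probe was 342209 bp, from 88530838 to 88873047. On every array 10928 of the members had a value that was not flagged as an outlier. Another 966 probes of the chromosome lie at or before 15 Mb and are not described.

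The DNA came from 16 tumour lines grown in culture, which are syngeneic: each can be grown in mice of the inbred strain it came from. The Balb/C lines were CT26 (colon), 4T1 (breast) and Renca (kidney), and the single DBA/2 line was P815 (mastocytoma). The C57BI6 lines were MC38 (colon), LL2 (lung), Hepa1-6 (liver), PAN02 (pancreas), EL4 (lymphoma), ID8 (ovary), the prostate lines TRAMPC1 and TRAMPC2, and 4 stocks of the melanoma B16, named B16F0 ECAC, B16F0 ATCC, B16F10 NCI and B16F10 ATCC. No treatment is named in the labels. Each line was represented by 1 cultured sample on 1 array, hybridised together with mouse genomic DNA from a supplier as reference, so a value has no replicate and its SE over probes measures noise along the chromosome only. The strain of the reference DNA is not given in the sources used here. The B16 arrays and the TRAMPC arrays each count as 1 family, which leaves 12 families.

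Array comparative genomic hybridisation reads DNA copy number as a ratio of fluorescence between a tumour and a reference. On the log2 scale used here 0 is the typical autosomal level of that line, a positive value is a relative gain and a negative value a relative loss. Tumour lines have no fixed number of chromosome sets, so a ratio is relative and does not give a count of copies. Amplification of a short stretch can raise the dose of growth genes and deletion can remove genes that restrain growth. Mouse chromosome 9 carries, in this order along the chromosome, the neighbouring ETS transcription factor genes Fli1 and Ets1, the checkpoint kinase gene Chek1, the ubiquitin ligase gene Cbl, the histone methyltransferase gene Kmt2a, the DNA damage kinase gene Atm, and Pml. Further along lie Smad3 and Map2k1, then the tumour suppressor Rassf1, the receptor gene Tgfbr2, Myd88, the beta-catenin gene Ctnnb1 and the chemokine receptor gene Cxcr6. The order is that of a later gene table, on the assembly GRCm38. Probes were not matched to genes, since no annotation of the build mm8 was used, so no gene is placed inside or outside a segment below.

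The noise between neighbouring probes ran from 0.22 in Renca to 0.41 in TRAMPC2 on the log2 scale. Between 99.7% and 99.98% of the members, depending on the array, gave a tumour signal well above background. The arrays fall into 2 scan batches by the scan time in the file headers: CT26, 4T1, Renca, Hepa1-6, ID8 and B16F10 NCI in the first, the other 10 in the second. The C57BI6 arrays had chromosome 9 medians of -0.15 to 0.12 in the first batch (3 arrays) and of -0.21 to 0.024 in the second (9 arrays), so these ranges overlapped. B16 was the only family with arrays in both batches. Its array in the first, B16F10 NCI, had a median of 0.12, above the 0.011 to 0.024 of its other 3 arrays. Batch and stock cannot be told apart there.

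A pair of arrays was close to identical: over 1 Mb bins Hepa1-6, a liver line, and PAN02, a pancreas line, correlated at 0.95, as high as the sublines TRAMPC1 and TRAMPC2 (0.95), and differed by 0.3 or more in 0 of 109 bins. They were scanned in different batches. The strain results are therefore also given with this pair as 1 family.

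One array stood apart from its family. At 272 members P815 lay 1 or more below the median of the 7 C57BI6 families other than B16, and at these probes B16F10 ATCC lay below that median too, by a median difference of -0.34. B16F0 ECAC, B16F0 ATCC and B16F10 NCI lay at 0.075, 0.15 and 0.24 there. B16F10 ATCC was at least 0.5 below the same median at 46.3% of the 272 probes and at 2.26% of all members. The other 3 B16 arrays did so at 0.735% to 6.62% of the 272. Among the other lines Renca did so at 36.8% (16.8% of all members), CT26 at 29.4% (6.33%) and 4T1 at 22.4% (1.64%), so B16F10 ATCC was not the only array low at these probes. On the other autosomes 9737 probes met the same condition in P815, and 35.9% of them were at least 0.5 low in B16F10 ATCC, against 5.45% to 11.8% in the other B16 arrays. The pattern was found after seeing the data, and its cause was not tested. Without B16F10 ATCC the B16 family median of chromosome 9 was 0.051 in place of 0.042.

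The median of chromosome 9 beyond 15 Mb separated Renca, the kidney line, from the rest. Renca had the lowest median log2 ratio, -0.36, and was the only family of 12 at or below -0.3, the size used here for a loss. CT26 followed at -0.22, MC38 at -0.21, ID8 at -0.15 and LL2 at -0.11. TRAMPC stood at -0.080, with its arrays at -0.093 and -0.068. Hepa1-6 stood at -0.055, PAN02 at -0.054, P815 at -0.031 and EL4 at 0.023. B16 stood at 0.042, with arrays from 0.011 to 0.12, and 4T1 was highest at 0.10. The spread among the B16 arrays, 0.11, was wider than the distance between any neighbours from CT26 upward. The order of neighbours among the families from CT26 to 4T1 is therefore not resolved. With the normexp background correction MC38 stood at -0.22, CT26 at -0.11, LL2 at -0.091 and ID8 at -0.042. In all, 9 of the 12 families lay below 0.

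**Figure D1:**
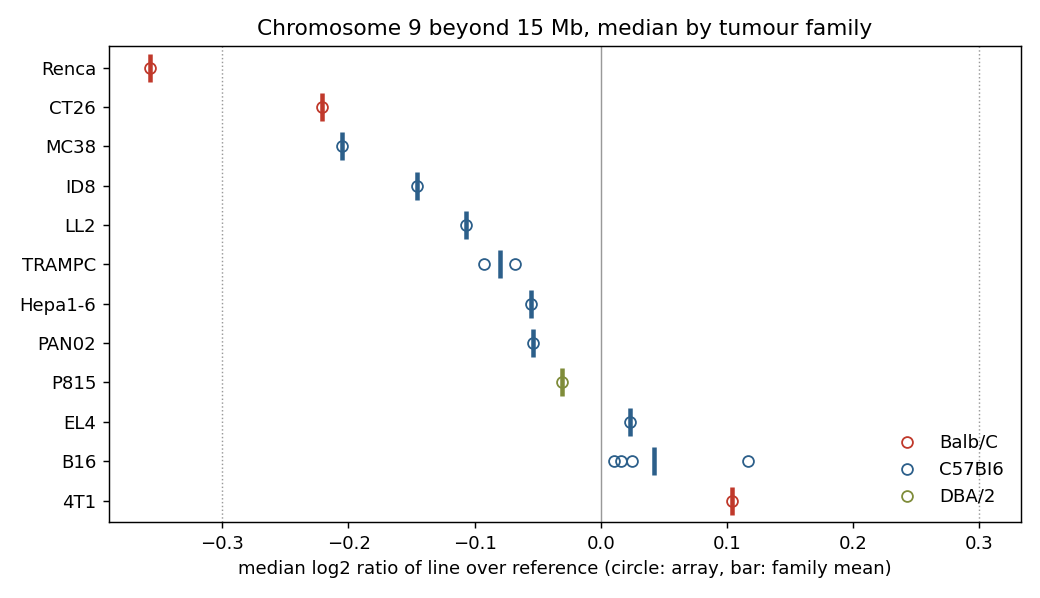
Median log2 ratio of line over reference on chromosome 9 beyond 15 Mb (horizontal axis) for 12 tumour families (vertical axis), coloured by strain. Circles are single arrays, vertical bars are family means, and dotted lines mark 0.3 above and below 0. Renca lies at -0.36, left of the loss line, and 4T1 lies highest at 0.10.

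Each profile was divided into segments of constant level, and a segment mean at or past 0.3 in size was called a gain or a loss. Of 102 segments over the 16 arrays, 33 were called, 20 losses and 13 gains. Calls fell on 8 arrays, and on 8 families. The other 8 arrays carried none: B16F0 ATCC, B16F10 NCI, B16F10 ATCC, Hepa1-6, PAN02, TRAMPC1, TRAMPC2 and ID8. PAN02 and B16F10 ATCC each formed a single segment over the whole stretch, at -0.021 and 0.024. Over all autosomes the same 8 arrays did carry calls. Loss segments held 13.9%, 20.8%, 16%, 2.11%, 2.06%, 12.5%, 7.95% and 3.43% of their autosomal probes, in the order named, and gain segments 18.2%, 17.1%, 13.7%, 11.3%, 19.3%, 13%, 13% and 17.6%. With the penalty for a further segment doubled, 20 segments were called, and at a size of 0.5 in place of 0.3, 18 were.

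**Figure D2:**
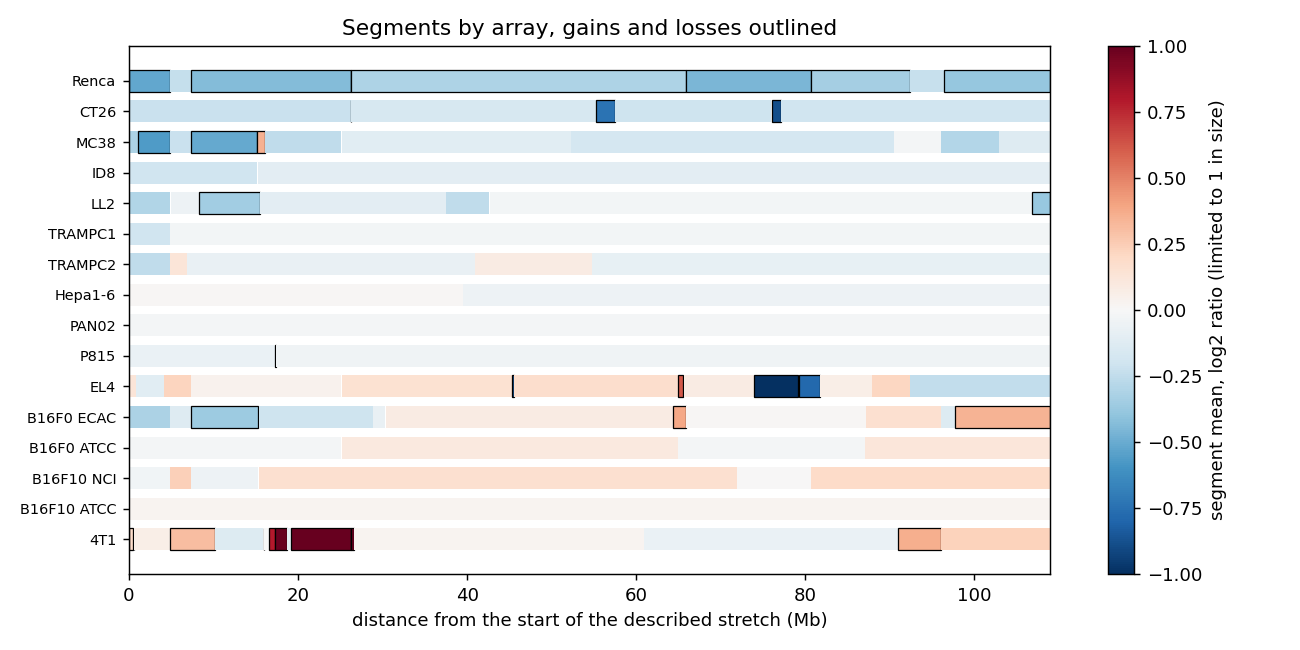
Segments of each of the 16 arrays (rows) by distance in Mb from the start of the described stretch (horizontal axis). Colour gives the segment mean as a log2 ratio, blue for low and red for high, and the 33 gains and losses are outlined. Renca is blue along most of its length, EL4 has 1 deep loss, and 4T1 has a dark red block near its left end.

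Renca lost most of the chromosome at a shallow and uneven level. Loss segments held 90.7% of its members, against 30.2% of its probes over all autosomes. Gains held none, against 8.61%. The deepest long part was chr9:15000153-19897907 at -0.52 ± 0.013 (SE, 361 probes), which continued below 15 Mb. From there chr9:19918785-22329938 rose to -0.24 ± 0.012, short of the loss size. The next part, chr9:22335943-41304025, stood at -0.43 ± 0.0062 (SE, 1883 probes). The longest part, chr9:41327245-80835623, spanned 39.5 Mb at -0.31 ± 0.0041 (SE, 4079 probes).

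Beyond it, chr9:80874214-95641281 stood at -0.46 ± 0.0080 and chr9:95647064-107410398 at -0.34 ± 0.0074. The highest Renca segment was chr9:107413675-111444953 at -0.23 ± 0.0086, and the end of the chromosome from 111451053 stood at -0.38 ± 0.0071. None of the steps between these long segments reached 0.3. Its mean was below 0 in 109 of 109 bins of 1 Mb and it was the lowest family in 85 of them. The share called depends on where 0 is set: centring on the mode of the autosomal values put 100% of the members in loss segments and the median at -0.48. After subtracting the median over families from each probe the share was 24.2%, and 4 of the 7 Renca losses were no longer called, the longest among them. With a size of 0.5, only the 5-probe segment at 41.3 Mb was called, 0.0456% of the members.

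CT26, the other Balb/C line with a low median, had a flat level between -0.22 and -0.16 with 3 deeper losses inside it. The deepest covers 5 probes at 41.3 Mb, at -3.3 ± 1.12, a place shared with 4T1 and Renca that is described further on. The next, chr9:70212149-72476101, spanned 2.26 Mb at -0.74 ± 0.021 (SE, 254 probes), a ratio of 0.598 to the reference. It lay between flanks at -0.16 and -0.21, with steps of -0.58 and 0.53. Over the same probes the other 11 families ran from -0.30 in Renca to 0.19 in EL4, so none reached the loss size there. The last, chr9:91008951-92117206, stood at -0.89 ± 0.049 (SE, 63 probes). In that interval EL4 was lower, at -1.13 ± 0.035, and Renca stood at -0.58, so CT26 did not stand alone. Neither of the longer losses was called with the normexp background correction, which put both at -0.25, nor the last with the penalty doubled. After subtracting the median over families the last stood at -0.54. CT26 was below 0 in 109 of 109 bins. Losses held 2.94% of its members, against 4.11% over all its autosomes, and gains none, against 12.1%.

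EL4, a T cell lymphoma line, carried the deepest loss over several megabases. From 88909406 to 94179899, which is 5.27 Mb, its mean was -1.0 ± 0.017 (SE, 378 probes), 2.00-fold below the reference. The loss went on at -0.78 ± 0.021 (SE, 297 probes) from 94233372 to 96753197. On the left it began with a step of -1.08 between 88883163 and 88909406, which is 26.2 kb, close to the right edge of the widest interval without probes. On the right it ended with a step of 0.85 between 96753197 and 96761697, which is 8.5 kb. Over the 5.27 Mb the next lowest family was Renca at -0.53, then CT26 at -0.39; the median of the other 11 was -0.19. With normexp both parts of the loss were still called, at -0.47 and -0.38 in place of the values above.

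EL4 also had a short loss and a short gain with sharp edges. The loss, chr9:60372970-60540514, spanned 168 kb at -0.88 ± 0.044 (SE, 24 probes), with steps of -1.03 and 1.06. The lowest other family there was P815 at -0.37. The gain, chr9:79907562-80589330, stood at 0.62 ± 0.045 (SE, 59 probes), and the next highest family was B16 at 0.16. Past 107387304 the EL4 level dropped by a step of -0.46, from 0.22 to -0.24, and stayed there to the last probe. The short loss was not called with normexp, which put it at -0.43, and the gain was not called with the penalty doubled. Losses held 6.38% of EL4 members, against 11.2% over all its autosomes, and gains 0.538% against 4.44%. EL4 was the highest family in 48 of the 109 bins and the lowest in 8.

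MC38 and LL2 were low near the left end. In MC38, chr9:16077388-19897907 stood at -0.56 ± 0.021 (SE, 265 probes) and chr9:22335943-30172660 at -0.51 ± 0.012 (SE, 670 probes). Between these losses its level was -0.23 over 400 probes. Directly after the second loss, chr9:30181737-31119871 rose to 0.35 ± 0.030 (SE, 88 probes), a step of 0.87 within 9.08 kb, and then fell to -0.26. Averaged over that interval no other family reached a gain, and 4T1 was next at 0.17. Inside it, however, lay a called 4T1 gain of 6 probes, chr9:30926554-30960341, at 1.54. Losses held 8.53% of MC38 members, against 12.8% of its probes over all autosomes, and gains 0.803% against 19.2%.

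In LL2, chr9:23286194-30513871 stood at -0.35 ± 0.014 (SE, 599 probes) and the last 2.19 Mb, chr9:121764426-123957580, at -0.38 ± 0.022 (SE, 292 probes). Losses held 8.13% of LL2 members, against 5.7% over all its autosomes, and gains none, against 6.72%. The first was not called with normexp or with the penalty doubled. Both LL2 losses were no longer called once the median over the 12 families was subtracted from each probe, while both MC38 losses still were, at -0.36 and -0.34.

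The B16F0 ECAC stock differed from the other B16 arrays. Its chr9:22335943-30315005 stood at -0.36 ± 0.0091 (SE, 681 probes), its chr9:79405635-80908022 at 0.39 ± 0.023 (SE, 120 probes), and its chr9:112703712-123957580, 11.3 Mb to the last probe, at 0.35 ± 0.0077 (SE, 1181 probes). EL4 stood at 0.38 over the 1.5 Mb gain. With normexp they stood at -0.040, 0.078 and 0.072 and none was called. The loss was also not called with the penalty doubled, or after subtracting the median over families, which put it at -0.19. Losses held 6.21% of its members, against 13.7% over all its autosomes, and gains 11.9% against 12.9%. Against B16F0 ATCC, 7 of 109 bins differed by 0.3 or more, and against B16F10 NCI, 20 did. The other 3 B16 arrays differed from each other by that much in 0 bins. With a single array per stock these differences have no test.

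P815 had 1 called segment, a narrow loss. Over chr9:32262111-32373164, 111 kb, its mean was -1.36 ± 0.15 (SE, 13 probes), with single probes from -2.07 to -0.21. The lowest other family was Renca at -0.44, and B16F10 ATCC, the array that shared low probes with P815 elsewhere, stood at 0.0011. In 4T1 the interval lay within a high segment, at 1.24. Losses held 0.119% of its members, against 4.28% over all its autosomes, and gains none, against 12%. The P815 loss was not called with the penalty doubled or with the normexp background correction, which put it at -0.19.

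4T1, the breast line, carried the only gains past 1. Between 30 and 42 Mb, 1098 of its 1284 probes lay in gain segments, 85.5%, at a mean log2 ratio of 1.23. The window was chosen because gains of this line were known to lie there, so the share is a description. Gains held 23.6% of all its members, against 9.26% of its probes over all autosomes, and losses 0.0456% against 8.94%. The longest gain was chr9:34227262-41304025, 7.08 Mb, at 1.25 ± 0.013 (SE, 927 probes), 2.37-fold above the reference. Over these probes the other 11 families ran from -0.42 in Renca to 0.085 in EL4. All 11 lay more than 1 below 4T1.

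The high stretch was not continuous. On its left lay chr9:32267219-33732205, 1.46 Mb at 1.33 ± 0.055 (SE, 80 probes), separated from it by a drop: chr9:33747188-34210523 stood at -0.10 ± 0.069 (SE, 22 probes). The median of the other 11 families over the same probes was -0.17, so 4T1 lay near the other lines there. Further left, chr9:31623398-32262170 stood at an intermediate 0.79 ± 0.040 (SE, 61 probes). It stepped up by 0.80 from chr9:30965252-31617744, which lay at -0.0075. A separate block of 6 probes, chr9:30926554-30960341, stood at 1.54 ± 0.13, above flanks at -0.14 and -0.0075. On the right, chr9:41327245-41637258 stood at 1.37 ± 0.074 (SE, 24 probes), and from 41681691 the level was 0.026 over the next 34.3 Mb.

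**Figure D3:**
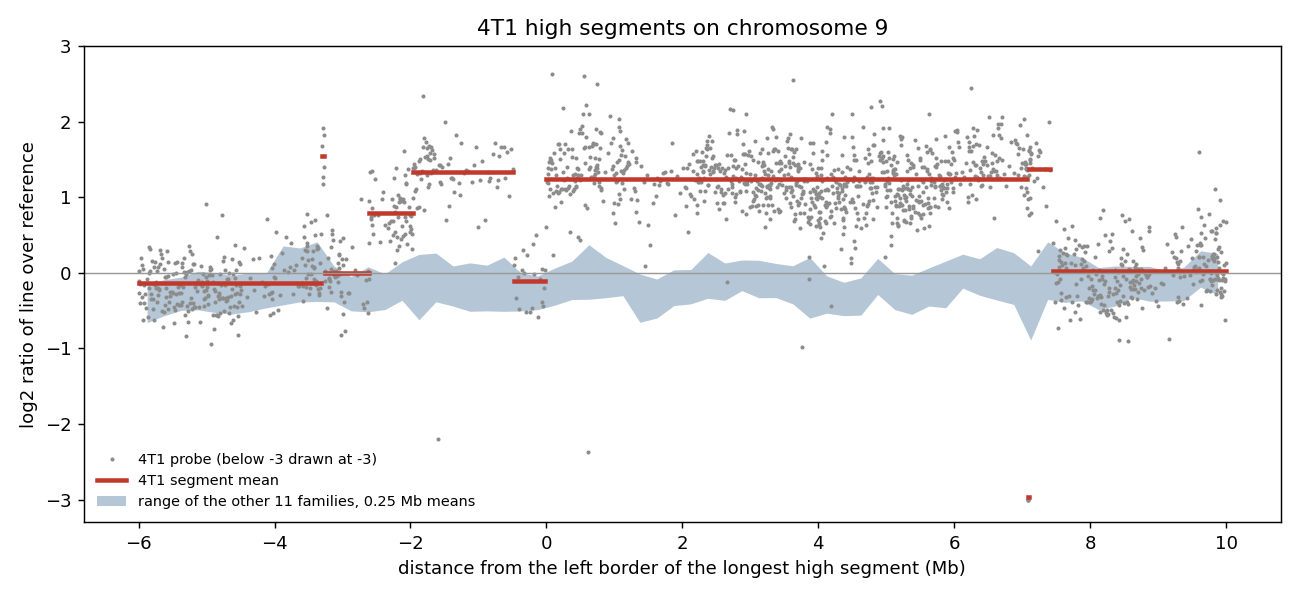
Log2 ratio of line over reference (vertical axis) in 4T1 by distance in Mb from the left border of its longest high segment (horizontal axis). Grey dots are probes, with values below -3 drawn at -3, red lines are segment means, and the blue band is the range of the other 11 families in 0.25 Mb means. The red lines show the long segment at 1.25, the shorter ones at 1.33 and 0.79 with a drop to -0.10, and the block of 6 probes at 1.54.

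The borders of these gains were sharp. The right end lay within 44.4 kb, between 41637258 and 41681691, with a step of -1.34. The left end of the longest segment lay within 16.7 kb, between 34210523 and 34227262, with a step of 1.35. The drop at 33.7 Mb lay within 15 kb, with a step of -1.43, and the first rise, at 31.6 Mb, within 5.65 kb. The borders at 31.6, 33.7 and 41.7 Mb fell on the same probe under all 7 alternatives that were segmented anew, and the one at 34.2 Mb moved by at most 9.67 kb. Some of the 7 had little or no room to move a border. Mode centring shifts an array by a constant, the deposited table holds the same ratios, and 4T1 had only 1 flagged member to keep. The step from 0.79 to 1.33 at 32.3 Mb was placed within 50 kb by 6 of the 7, and the block of 6 probes was lost with the penalty doubled.

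Elsewhere 4T1 had 1 more short high block and 3 lower gains. At chr9:15556406-15622539, 7 probes stood at 1.44 ± 0.11, and they were not called with the penalty doubled. The segment on their left, whose mean over its whole length also passed the gain size, continued below 15 Mb and had a mean of 0.19 ± 0.043 over its 60 members. At chr9:19918785-25216036 the mean was 0.31 ± 0.014 (SE, 624 probes), and it stepped down by -0.44 at its right end. At chr9:105994999-111086481 the mean was 0.36 ± 0.013 (SE, 801 probes). Both long segments lie close to 0.3 and were not called with the penalty doubled or at a size of 0.5, and the first also not after subtracting the median over families.

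A low point inside the 4T1 gain was shared by the Balb/C lines. At 3 neighbouring probes, chr9:41311957-41319282, the mean was -5.03 in CT26, -5.53 in 4T1 and -5.80 in Renca, and in each of these lines the signal of all 3 probes was not well above background. With the array's lowest signal well above background set in place of each dim one, the lines lay at least 6.93-fold, 9.95-fold and 11.3-fold below the reference. The C57BI6 families had means from -0.080 to 0.52 and P815 stood at -0.23, so the 3 lines without signal were the 3 Balb/C ones. In 4T1 the nearest probes outside, at 41308286 and 41323512, read 0.97 and 0.77, so its gain reached both edges of the low point. The stretch without signal lies between 41308345 and 41323512 and is narrower than the 5-probe segment that contains it. With normexp that segment stood at -0.42 in CT26 and -0.17 in 4T1, and neither was called. In Renca it stayed within a called loss.

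For steps of at least 0.3, that low point was the only place where 3 or more families shared a border. Of 86 borders between neighbouring segments, 40 had a step of at least 0.3, on 9 arrays: 13 in 4T1, 8 in EL4, 6 in CT26, 4 in B16F0 ECAC, 3 in MC38, 2 each in P815 and Renca, and 1 each in LL2 and TRAMPC2. Within a window of 0.5 Mb, such borders met in CT26, 4T1 and Renca at 41.3 Mb and in no other set of 3 families.

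Weaker steps were shared more widely. Between 19869499 and 19929944, 8 arrays of 6 families stepped upward, by 0.17 to 0.38: TRAMPC1, TRAMPC2, 4T1, B16F10 NCI, B16F0 ECAC, Renca, MC38 and LL2. Near 22.3 Mb, 5 arrays of 4 families (EL4, B16F10 NCI, B16F0 ECAC, MC38 and Renca) stepped down, by -0.18 to -0.29. At these places the probe spacing changed as well. There were 97 probes per Mb in the 2 Mb left of the first border and 166 right of it. The second had 174 left and 79 right. At 40150895, EL4, MC38 and B16F0 ATCC stepped up by 0.11 to 0.14, while the density fell from 173 to 98.5 probes per Mb. Between 111049686 and 111100893, MC38, B16F0 ECAC and 4T1 stepped down by -0.13 to -0.30, and the density fell from 136.5 to 74.5. Over the 109 bins, the number of probes correlated with the median over families (Spearman 0.49, Pearson 0.49, across bins that share arrays and are not independent). The part of probe density in these steps was not tested.

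Across 1 Mb bins, losses were more widespread than gains. In 87 of 109 bins (79.8%) at least 1 family was at or below -0.3, against 61.2% of bins over all autosomes. Renca was lost in 84 of the 87. With Renca left out it was 45 bins (41.3%), and the autosomal share without Renca was not computed. In 20 bins (18.3%) a family was at or above 0.3, against 57.9% over all autosomes. Of these, 19 belonged to 4T1 and 1 to EL4, and 0 bins were gained in 2 families. By family, Renca had 84 lost bins, MC38 27, CT26 18, EL4 13 and LL2 11. B16 and PAN02 had none, and ID8, P815, TRAMPC, Hepa1-6 and 4T1 had 1 to 4. No share over all autosomal bins was computed for single families.

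The bin lost most often was chr9:91000001-92000000 (46 probes), at or below -0.3 in 9 of 12 families; bins lost in at least 9 families made up 1.41% of all autosomal bins and 0.917% of these. All 12 families were below 0 in it. EL4 was lowest at -1.17, then CT26 at -0.95, Renca at -0.63, ID8 at -0.48 and MC38 at -0.47. P815, TRAMPC, 4T1 and Hepa1-6 lay between -0.34 and -0.30, and PAN02 at -0.29, LL2 at -0.19 and B16 at -0.15 missed the size. The CT26 loss there is 1.11 Mb long, while those of EL4 and Renca run on past the bin. In 11 bins all 12 families were below 0. Bins lost in 5 or more families numbered 4 (3.67%), against 9.51% over all autosomes: besides the one named, those starting at 28, 29 and 93 Mb, with 5 families each.

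**Figure D4:**
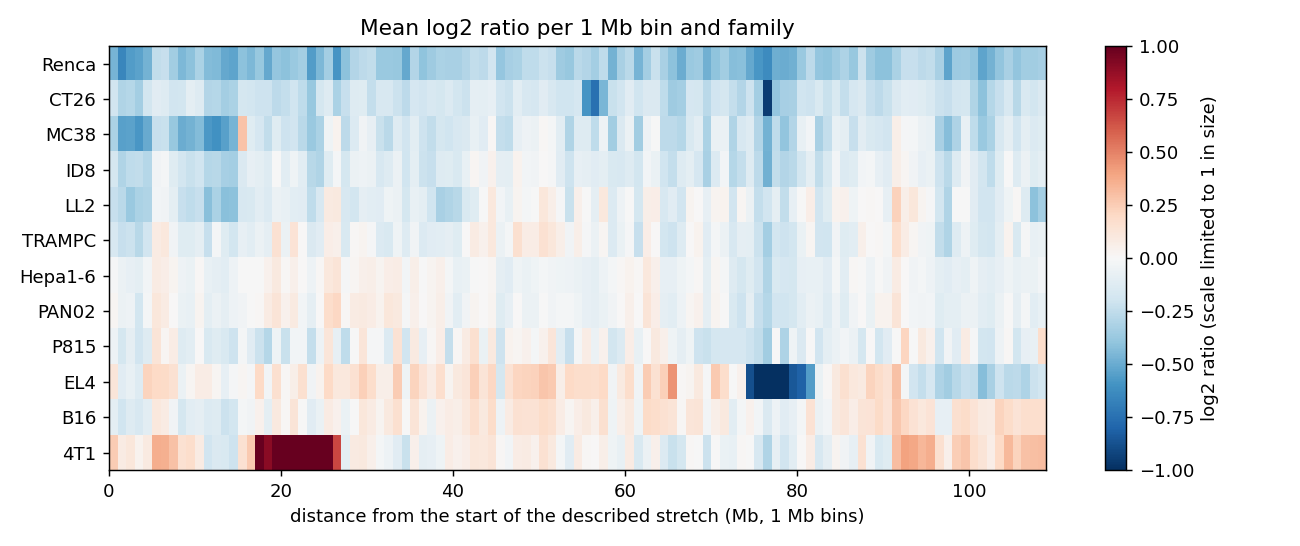
Mean log2 ratio per 1 Mb bin (columns, by distance in Mb from the start of the described stretch) and family (rows, ordered by median). Blue is low, red is high, and colours are limited to 1 in size. The Renca row is blue in all 109 bins, the 4T1 gain and the EL4 loss stand out, and a faint blue column crosses all 12 rows at the bin at or below -0.3 in 9 families.

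Families differed in how alike their profiles were. Over 66 pairs the correlation of bin means ran from 0.071 (4T1 with Renca) to 0.95 (Hepa1-6 with PAN02), with a median of 0.45; all families share the reference DNA and the probes. The 4T1 profile had a correlation of 0.17 or less with 7 of the other families. The median size of the difference per bin was 0.020 between Hepa1-6 and PAN02 and 0.043 between TRAMPC1 and TRAMPC2, which are sublines of one tumour model and also had 0 bins apart by 0.3.

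The strain comparison asked which probes differ between 3 Balb/C lines and 8 C57BI6 families, by limma across all autosomal probes; its p-values measure the spread between lines. On chromosome 9 beyond 15 Mb, 220 of 10941 tested probes (2.01%) had an adjusted p under 0.05, against 2.34% of all 220255 tested. Of these 201 were lower in Balb/C (1.84%, against 1.98%) and 19 were higher (0.174%, against 0.36%). The share was near the background, and the median difference of the 220 was -0.92. CT26, 4T1 and Renca share a scan batch. In the main fit the 220 stood against 5153 called over all autosomes. With that batch as a block term, and B16F10 NCI left out, 101 probes were called, against 2379 over all autosomes. Of the 101, 98 were among the 220. Within the first batch 129 were called, 124 of them shared, against 3180, and with normexp 60 against 1291. With Hepa1-6 and PAN02 as 1 family 199 were called, against 4816. Leaving out CT26, 4T1 or Renca gave 154, 246 or 147, against 3871, 4250 or 3760. These fits tested 220255 to 220450 autosomal probes.

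The calls were mostly single probes: 186 stood alone and 34 formed 16 runs of at least 2 neighbours, 15 lower and 1 higher in Balb/C. The largest run was the low point at 41.3 Mb, at -5.45 ± 0.39 (SD, n = 3) in Balb/C and 0.18 ± 0.21 (SD, n = 8) in C57BI6, at least 10.4-fold lower (limma, largest adjusted p = 7.2e-14). In chr9:77968969-77972893 (2 probes) Balb/C stood at 0.056 ± 0.27 and C57BI6 at 3.29 ± 0.44 (limma, largest adjusted p = 2.0e-05), with P815 at 0.19. In the Balb/C lines 2 signals there were not well above background, and with these raised the difference was at least 9.15-fold. The reference signal was also not well above background 15 times over the 2 probes and 16 arrays. Dim reference signals were not raised, so this fold bounds the line signals only.

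In chr9:81028092-81046186 (2 probes) Balb/C stood at -1.52 ± 0.32 and C57BI6 at 1.5 ± 0.26, at least 5.16-fold lower (limma, largest adjusted p = 0.00096), and P815 stood with Balb/C at -1.29. In chr9:106945239-106950770 (2 probes) the means were -1.23 ± 0.49 and 1.5 ± 0.20, at least 3.79-fold lower (limma, largest adjusted p = 0.010), and P815 stood with C57BI6 at 1.94. In chr9:116715273-116724249 (2 probes) they were -1.45 ± 0.25 and 0.19 ± 0.20 (limma, largest adjusted p = 0.015), with P815 at 0.13. The single higher run, chr9:55012043-55016522 (2 probes), stood at 0.27 ± 0.21 in Balb/C and -0.59 ± 0.22 in C57BI6 (limma, largest adjusted p = 0.033), with P815 at 0.39. In none of these runs did the Balb/C lines and the C57BI6 families overlap. The runs were picked for this same difference, so that is a description and no further support. The share of all tested probes without overlap is not given here. The reference signal was not well above background 1 time in the run at 81028092 and 4 times in the run at 106945239. The folds of these 2 runs therefore bound the line signals only.

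The called probes were spread unevenly. From 15 to 25 Mb 2 of 965 tested probes were called (0.207%), and from 55 to 65 Mb 6 of 1087 (0.552%). From 45 to 55 Mb 36 of 997 were (3.61%), and from 95 to 105 Mb 34 of 1033 (3.29%). The 1 Mb bins with the most calls began at 104 Mb, with 16 of 117 probes, and at 48 Mb, with 13 of 121. Between 23658019 and 32630109, a stretch of 8972 kb, none of 786 tested probes was called. The Balb/C spread was wider where the lines differ in copy number, with a median SD of 0.86 from 35 to 45 Mb, where 4T1 is high, and of 0.18 to 0.34 in the other 10 Mb windows.

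P815, which took no part in the fit, lay nearer the Balb/C mean at 143 of the 220 probes and nearer the C57BI6 mean at 77. The balance changed along the chromosome: from 45 to 55 Mb P815 was nearer Balb/C at 27 of 36 and from 95 to 105 Mb at 26 of 34, while from 115 Mb to the end it was nearer C57BI6 at 14 of 20. At 118 of the 220 probes the C57BI6 mean lay farther from 0 than the Balb/C mean, so the ratio to the reference was nearer 0 in Balb/C there.

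**Figure D5:**
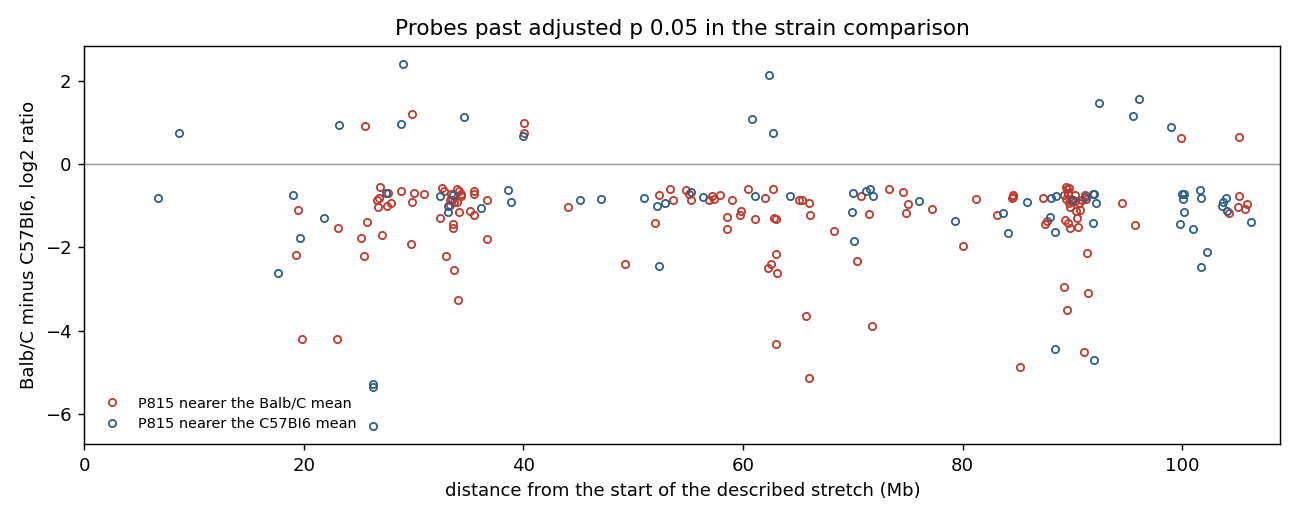
Difference in mean log2 ratio, Balb/C minus C57BI6 (vertical axis), of the 220 probes called by limma, by distance in Mb from the start of the described stretch (horizontal axis). Red circles mark the 143 probes at which P815 was nearer the Balb/C mean and blue circles the 77 at which it was nearer the C57BI6 mean. Most points lie below 0, and the lowest 3 are the probes of the low point at 41.3 Mb.

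The overall level did not separate the strains. The medians averaged -0.16 ± 0.24 (SD, n = 3) in Balb/C and -0.073 ± 0.082 (SD, n = 8) in C57BI6, a difference of -0.085 (two-sided exact permutation test, p = 0.39; the smallest p this design allows is 0.0061). Renca and CT26 were the lowest of the 11 families and 4T1 was the highest. Without 4T1 the difference was -0.22 (exact permutation p = 0.022, the smallest possible), and without Renca its sign turned, to 0.014 (exact permutation p = 0.89). Within the first scan batch it was -0.13 (exact permutation p = 0.4), and with Hepa1-6 and PAN02 as 1 family -0.083 (exact permutation p = 0.42).

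Sublines B16F10 and B16F0, of which B16F10 was selected for spread to the lung, were compared by limma on 1 Mb bins with 2 arrays each. Of 109 bins 0 had an adjusted p under 0.05, as had 0 of 2408 over all autosomes, and 2 (1.83%) had an unadjusted p under 0.05, against 4.98%. The lowest adjusted p in the 109 bins was 0.89 (limma). The mean difference over these bins, B16F10 minus B16F0, was 0.048 with every array in the fit. It was 0.063 without B16F0 ATCC, 0.033 without B16F0 ECAC, 0.10 without B16F10 ATCC and -0.0053 without B16F10 NCI. The bin with the largest difference began at 38 Mb: B16F0 ECAC stood at -0.30, B16F0 ATCC at -0.16, B16F10 NCI at 0.054 and B16F10 ATCC at -0.027, a difference of 0.25 ± 0.091 (SE). B16F10 was higher in 83 of the 109 bins, and in 50 of the 109 without B16F10 NCI, the array with the highest median. The only B16F10 array left there is B16F10 ATCC. B16F10 NCI was also the only B16 array in the first scan batch, so its level and the batch cannot be told apart.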

How the data were processed

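Genomic DNA of 16 mouse tumour lines was hybridised to 2-colour Agilent arrays, the line in red (Cy5) and the reference in green (Cy3), per the labels. The deposited intensity values were background-subtracted and scaled between dyes by Agilent Feature Extraction 10.7.3.1, without a lowess curve, and probe positions are on mm8, per the file headers. On each array 99.9% or more of the deposited log10 ratios, once in log2, equalled the ratio of processed signals with a tolerance of 0.001. The deposited value table, in log2 and uncentred, differed from these ratios by at most 5.1e-05, and its column medians ran from -0.044 to 0.053; scale and direction were settled from the files. Outlier and background flags, deposited with the spots, are 0 or 1.

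Log2 of red over green was taken without flagged and control spots, repeat spots were averaged, and each array was centred on its autosomal median. Segments came from an exact change point search (squared error, penalty 6 times squared noise times log of probe number, at least 5 probes, probes limited to 3 noise SDs around a running median of 5). Dim line signals were raised to the array's lowest signal well above background for a fold given as "at least". Dim reference signals were not, so such a fold is a bound for the line signals only. Strains and B16 sublines were compared with limma 3.58.1 (lmFit, eBayes, Benjamini-Hochberg adjustment) in R 4.3.3, and medians by an exact permutation test; P815 stayed out. Segmentation and limma were tested on simulated data. The arrays' number limits the precision. Alternatives were mode centring, normexp (offset 50; on median spot and background signals, since the means planned for it were not used here), flagged spots kept, dim probes left out, a doubled penalty, sizes of 0.2 and 0.5, the deposited table, the scan batch, merged families and single lines left out. Subtracting the median over families and leaving out B16F10 ATCC were added after seeing the data.

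Regions stand for genes in the naming rule: each family's highest and lowest segment, longest gain and loss, segments under 5 Mb at or past 1, the 4T1 segments between 30 and 42 Mb, borders shared by 3 families, strain runs of 2 or more probes (up to 5 each way) and the bins changed in most families. Other called segments are named as well. Members and rules were chosen with earlier results of these data known.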

Additional observations from a re-analysis of the deposited data

Results flagged for a closer look

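Within groups of 4 to 8, the sample farthest out was set against Dixon's 95% critical value in 23 groups, and 3 exceeded it. Chance flags about 1 in 20 separate groups, but most of these groups hold the same 8 C57BI6 families. The interval at 41308286 entered for CT26, 4T1 and Renca alike, with the same values. The 3 flags therefore cannot be set against that rate. Among the 4 B16 arrays, B16F10 NCI had a chromosome 9 median of 0.117, while the other 3 lay between 0.011 and 0.024. It was the only B16 array in the first scan batch. Over the CT26 loss that starts at 91008951, EL4 stood at -1.13 among the 8 C57BI6 families, whose median was -0.30. Over the 6-probe 4T1 block that starts at 30926554, MC38 stood at 0.337, inside its own gain, against a median of 0.024 of the 8 families.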

How the results depend on the processing

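With 1 array per line, no level has a replicate, and short segments of small size could be missed on the noisier arrays. No paired analysis was possible because the labels give no replicate numbers. A called segment counted as kept when calls in the same direction covered a share of at least 0.5 of its length, also calls of longer segments. Of the 33, 9 were kept under all 9 alternatives, and 23 each with the penalty doubled and with normexp. The 9 include the Renca segment at 41308286, which a longer Renca loss covered with dim probes left out. The deposited table and a size of 0.2 could not lose a call. The count of called segments was 20 with the penalty doubled, 52 at a size of 0.2, 18 at 0.5 and 77 after subtracting the median over families. It stayed within 1.5 times under the other 5. The Renca median was -0.48 with mode centring and -0.40 with normexp. The share of 4T1 probes in gains between 30 and 42 Mb stayed between 85.0% and 85.8% under all 8 of its alternatives. The 5-probe 4T1 segment at 41308286 turned from -2.97 to 0.87 with dim probes left out, which removes its 3 low probes. The strain count was 101 with the scan batch as a block, 129 within the first batch and 60 with normexp, and leaving out each Balb/C line gave 147 to 246. The strain difference in medians ran from -0.22 (without 4T1, p = 0.022 by exact permutation) to 0.014 (without Renca). The B16 bin count was 0 under all 8 alternatives. B16F10 ATCC left out gave 221 strain probes (5138 over all autosomes) and a median difference of -0.086. Of the values of single called segments and of the family medians other than Renca under these alternatives, 83 moved by more than their spread, 159 did not, and 1, the 4T1 segment named above, turned sign.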

Other observations

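Subtracting the median over families showed short low intervals that the main segmentation did not call in P815 and B16F10 ATCC. P815 then had 20 loss segments and B16F10 ATCC 15, and 6 of the 15 (and 6 of the 20) overlapped between them; none of the other 3 B16 arrays had a loss segment. At chr9:106309311-106328895 (6 probes) P815 stood at -1.65 and B16F10 ATCC at -1.34, while B16F0 ECAC, B16F0 ATCC and B16F10 NCI stood at 0.17, 0.16 and 0.37. At chr9:108666875-108692734 (6 probes) P815 stood at -0.96 and B16F10 ATCC at -0.77, with the other 3 B16 arrays at 0.27 to 0.33. Other lines were low in some of these intervals: at chr9:95359477-95378383 (5 probes) P815 stood at -1.40 and B16F10 ATCC at -1.26, but EL4 at -1.72, B16F0 ECAC at -1.06 and 4T1 at -0.71 as well. The sharing was not complete: at chr9:89756117-89864261 (17 probes) P815 stood at -0.71 and B16F10 ATCC at 0.21. Both arrays were in the second scan batch, as were B16F0 ECAC and B16F0 ATCC. The cause was not tested.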
